A study of Homo sapiens with 12 samples.

Results

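The NADPH oxidase genes described here are NOX1, NOX4, NOX5, DUOX1 and DUOX2, which encode catalytic subunits, and DUOXA1, DUOXA2, CYBA, NOXA1 and NOXO1, which encode partner proteins. They are 10 of the 57500 gene rows of a count table of 12 RNA-seq libraries, and all 10 symbols were found, 1 row each. The genes were chosen from differences already seen in these libraries, above all the level of NOX4 in ovarian cells with and without the cytokine TGF-β. Their own counts, folds and positions against the threshold are therefore given as a description in both comparisons. The libraries form 4 groups of 3 biological replicates from established human cancer cell lines. SW480 came from a primary colorectal cancer and SW620 from a metastasis of the same patient, both untreated and grown in DMEM with serum. The ovarian cancer line PEO4 grew in RPMI 1640 with serum, either in standard medium (control) or with recombinant human TGF-β at 10 ng/mL for 6 days. PEO4, SW480 and SW620 are each 1 line, so a difference between lines is a difference between these lines, and the labels do not say whether the replicates were separate cultures. P-values therefore measure only the spread between these libraries.

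NADPH oxidases are membrane enzymes that carry electrons from cytosolic NADPH across a membrane to oxygen, giving superoxide or hydrogen peroxide. NOX1 is known from colon epithelium and needs CYBA (p22phox) with the organizer NOXO1, the activator NOXA1 and the small GTPase RAC1. NOX4 needs CYBA alone, is taken to be active whenever it is made, and is a known TGF-β response gene in fibroblasts. NOX5 and the dual oxidases DUOX1 and DUOX2 have calcium-binding EF hands, and each DUOX protein leaves the endoplasmic reticulum with its maturation factor, DUOXA1 or DUOXA2.

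Library totals ran from 14531420 to 22028956 counts. The ovarian marker genes (PAX8, WT1, EMX2, SOX17, MSLN and MUC16) summed to between 5340 and 8980 CPM (counts scaled to 1e6 per library) in PEO4 control, to between 3000 and 4760 CPM with TGF-β and to between 105 and 172 CPM in the colorectal libraries. With TGF-β 3 of the 6 fell, MSLN by 0.77, EMX2 by 0.49 and WT1 by 0.47 on the log2 scale (edgeR's adjusted p 0.00375, 0.0235 and 0.0274), in the same libraries in which NOX4 and NOX5 were higher, and their part in the values of those genes was not tested. EMX2 did not pass without any 1 library other than control replicate 1, nor WT1 without control replicate 2 or any 1 treated library, and neither passed with all 12 libraries in 1 model. MUC16, the largest part of the sum, had a log2 difference of -1.27 (edgeR's adjusted p 0.0701). Of the 6 colorectal marker genes, which summed to at most 3.31 CPM in PEO4, the intestinal factor CDX2 had 15.9 to 23.8 CPM in the colorectal libraries (edgeR's adjusted p 0.960 between the lines). The 3 others tested between the lines rose in SW620, the stem cell receptor LGR5 by 6.36, the microvillus protein VIL1 by 3.00 and the cadherin CDH17 by 2.61 on the log2 scale (edgeR's adjusted p 2.28e-06, 9.94e-05 and 0.0064). The list summed to between 34.9 and 56.2 CPM in SW480 and to between 273 and 407 CPM in SW620, and its part in the differences between the lines given here was not tested. WT1 and MSLN also rose in SW620, by 2.38 and 1.34 on the log2 scale (edgeR's adjusted p 4.59e-05 and 0.000324). Of 3 genes that respond to TGF-β in many cells, PMEPA1 rose, with 104 ± 69.8 CPM in control and 521 ± 83.9 CPM with TGF-β (SD, n = 3), at an adjusted p of 0.0182 in edgeR. SKIL had 382, 274 and 170 CPM in control and 606, 634 and 514 CPM with TGF-β, so its groups were apart, but it did not pass (log2 1.08 ± 0.24, SE; edgeR's adjusted p 0.0546), whereas it passed in 6 of 13 other settings, DESeq2 among them. SMAD7 had a log2 difference of 0.32 (edgeR's adjusted p 0.432), and its groups overlapped. PMEPA1 did not pass without control replicate 2, TGF-β replicate 1 or TGF-β replicate 2. Control replicate 1 had 184 CPM of PMEPA1 against 69.9 and 57.5 in the other control libraries. Among markers of other cells, the leukocyte genes summed to 3.09 to 16.1 CPM over all libraries. Those of fibroblasts and endothelium summed to 2.80 to 19.9 CPM, and the highest sums of both lists were in SW620. Of 4 tested fibroblast and endothelial markers, LUM and PECAM1 rose in SW620, by 4.71 and 4.07 on the log2 scale (edgeR's adjusted p 9.48e-05 and 0.00128). The other 2 did not pass. These sums are not small beside single members, DUOX1 having 6.54 CPM in SW480 and 15.3 CPM in SW620. The part of other cells in the members' values was not tested. The colon marker KRT20 was at 0 in every PEO4 library. SW620 replicate 3 had 758 counts of MUC16 against 49 and 5 in the other SW620 libraries, and SW480 had 755, 638 and 924. The leukocyte gene PTPRC had 4, 50 and 108 counts in SW620 replicates 1 to 3.

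NOX4 (ENSG00000086991) lies on chromosome 11, from 89324356 to 89498187 on the minus strand of GRCh38 in the GENCODE 29 annotation, and shares no exon base with another gene. Its counts in PEO4 control replicates 1 to 3 were 21, 12 and 11. With TGF-β they were 134, 168 and 188. All 3 treated libraries lay above all 3 controls, the lowest treated value being 7.36 CPM and the highest control value 1.18 CPM. The group means were 0.823 ± 0.321 CPM in control and 8.56 ± 1.05 CPM with TGF-β (SD, n = 3), a fitted 10.3-fold difference (log2 3.36 ± 0.28, SE). The control library with the most NOX4 was replicate 1, which also had the most PMEPA1. Without it the log2 difference was 3.73, and across 13 other settings it ranged from 3.16 to 3.73. In bulk RNA a larger share of cells with the transcript and more transcript per cell cannot be told apart. In the colorectal lines NOX4 was at the edge of detection, with 0 counts in each SW480 library and 2, 0 and 3 in SW620. A count of 0 in SW480 allows up to 3 counts, or 0.149 to 0.168 CPM depending on the library, and this limit covers counting error only.

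RefSeq (GRCh38.p14) gives NOX4 3 start sites, and the 250 bases before each were searched on both strands for CAGAC, the core letters of a SMAD binding element, and for TGANTCA, the letters of an AP-1 element. These factors act downstream of TGF-β in many cells, which is why the stretches are shown. CAGAC or its complement occurred 3 times before the start at 89491375 and in neither of the other NOX4 windows. Of the 250 bases of that window, 190 lie in GENCODE exons, and the part outside them is chr11:89491566-89491625. All 3 matches therefore lie in annotated exon sequence. They also lie inside the GENCODE gene, which reaches 89498187, further upstream. The matches are printed in the direction of NOX4 transcription with the searched letters in capitals. Their first letters lie 162, 121 and 44 bases before the start at 89491375.
NOX4 match 1, chr11:89491523-89491547: cgcggcggagCAGACtggtgcagcc
NOX4 match 2, chr11:89491482-89491506: agcgctgggcGTCTGggcagctgag
NOX4 match 3, chr11:89491405-89491429: ctctgggtagCAGACcccgcccggg
The next stretch upstream in the same window, chr11:89491566-89491625, holds no match: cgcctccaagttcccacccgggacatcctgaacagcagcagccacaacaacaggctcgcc
The corresponding NOX5 window, chr15:69014445-69014694 on the plus strand, holds neither motif. It lies inside the GENCODE gene, which starts at 68930525, further upstream, and the bases before that start were not searched.
NOX5 window: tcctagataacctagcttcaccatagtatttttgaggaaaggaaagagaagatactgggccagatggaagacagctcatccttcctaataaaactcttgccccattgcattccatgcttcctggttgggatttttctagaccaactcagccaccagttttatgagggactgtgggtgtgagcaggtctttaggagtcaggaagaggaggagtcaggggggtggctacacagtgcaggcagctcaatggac
CAGAC was found in 9 of the 13 windows of the members and for 8 of the 10 genes, against 38.0% of 35116 RefSeq windows of this length. The windows of DUOX2 and DUOXA2 overlap and so do those of DUOXA1 and DUOX1, so some matches are counted in both. TGANTCA was found in none of the 13 and in 6.57% of all windows. A match here is a run of letters, not a measured binding site, and the libraries hold no measure of binding.

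NOX5 (ENSG00000255346), the calcium-regulated oxidase, lies on chromosome 15 from 68930525 to 69062743 on the plus strand. Its counts were 68, 62 and 54 in control and 156, 142 and 143 with TGF-β. The groups did not overlap, and the means were 3.44 ± 0.564 and 7.76 ± 0.758 CPM (SD, n = 3), a fitted 2.24-fold difference (log2 1.16 ± 0.19, SE). NOX5 shares 8.76% of its exon bases with neighbouring genes, among them SPESP1 on the same strand. SPESP1 had 92, 65 and 105 counts in control and 110, 94 and 90 with TGF-β, so its groups overlapped. SW480 and SW620 held at most 4 counts of NOX5 in any library.

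DUOX1 (ENSG00000137857), the dual oxidase with the most counts in every group, had 107, 105 and 116 counts in PEO4 control and 125, 109 and 166 with TGF-β. The groups overlapped, with means of 6.10 ± 0.139 and 6.98 ± 1.19 CPM (SD, n = 3) and a log2 difference of 0.18 ± 0.18 (SE). CYBA (ENSG00000051523), the membrane partner of NOX4 and NOX1, had 58.9 ± 3.54 CPM in control and 58.4 ± 5.82 CPM with TGF-β (SD, n = 3), a log2 difference of -0.02 ± 0.09 (SE). NOXA1 (ENSG00000188747), the NOX1 activator, had 5.06 ± 1.41 and 3.94 ± 0.801 CPM (SD, n = 3), a log2 difference of -0.37 ± 0.26 (SE), and its groups overlapped. Relative to NOX4 per kilobase of exon, CYBA was 142 ± 47.3 times as abundant in control and 12.6 ± 2.42 times with TGF-β (SD, n = 3).

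The remaining 5 genes were too low in PEO4 to be tested. DUOX2 had 7, 12 and 14 counts in control and 4, 10 and 10 with TGF-β. Its maturation factor DUOXA2 had 6, 6 and 15 against 6, 0 and 11, and DUOXA1 had 5, 5 and 7 against 10, 1 and 11. NOX1 had 1, 1 and 2 counts against 0, 0 and 1, and NOXO1 had at most 1 count in any PEO4 library. The CPM of the groups overlapped in 4 of the 5, and for NOX1 the lowest control value (0.0564 CPM) and the highest treated value (0.0495 CPM) were each 1 count.

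Of the 10 genes, 5 were tested between the PEO4 groups and 2 of them, NOX4 and NOX5, were past the adjusted threshold of 0.05 in edgeR's quasi-likelihood test, both higher with TGF-β. Over all 19064 genes tested, 431 (2.26%) were past it, 1.27% higher and 0.991% lower. The CPM ranges of the same 2 genes were apart between the groups, as were those of 21.3% of all tested genes. The median log2 difference was 0.18 over the 5 tested genes and -0.016 over all genes. NOX5 was no longer past the threshold without control replicate 2, without TGF-β replicate 1, without TGF-β replicate 2, or with all 12 libraries in 1 model, and its log2 difference stayed between 1.04 and 1.26. The authors' deposited table gives log2 fold changes of 3.37 for NOX4 and 1.16 for NOX5 and lists both under an adjusted p of 0.05.

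**Figure D1:**
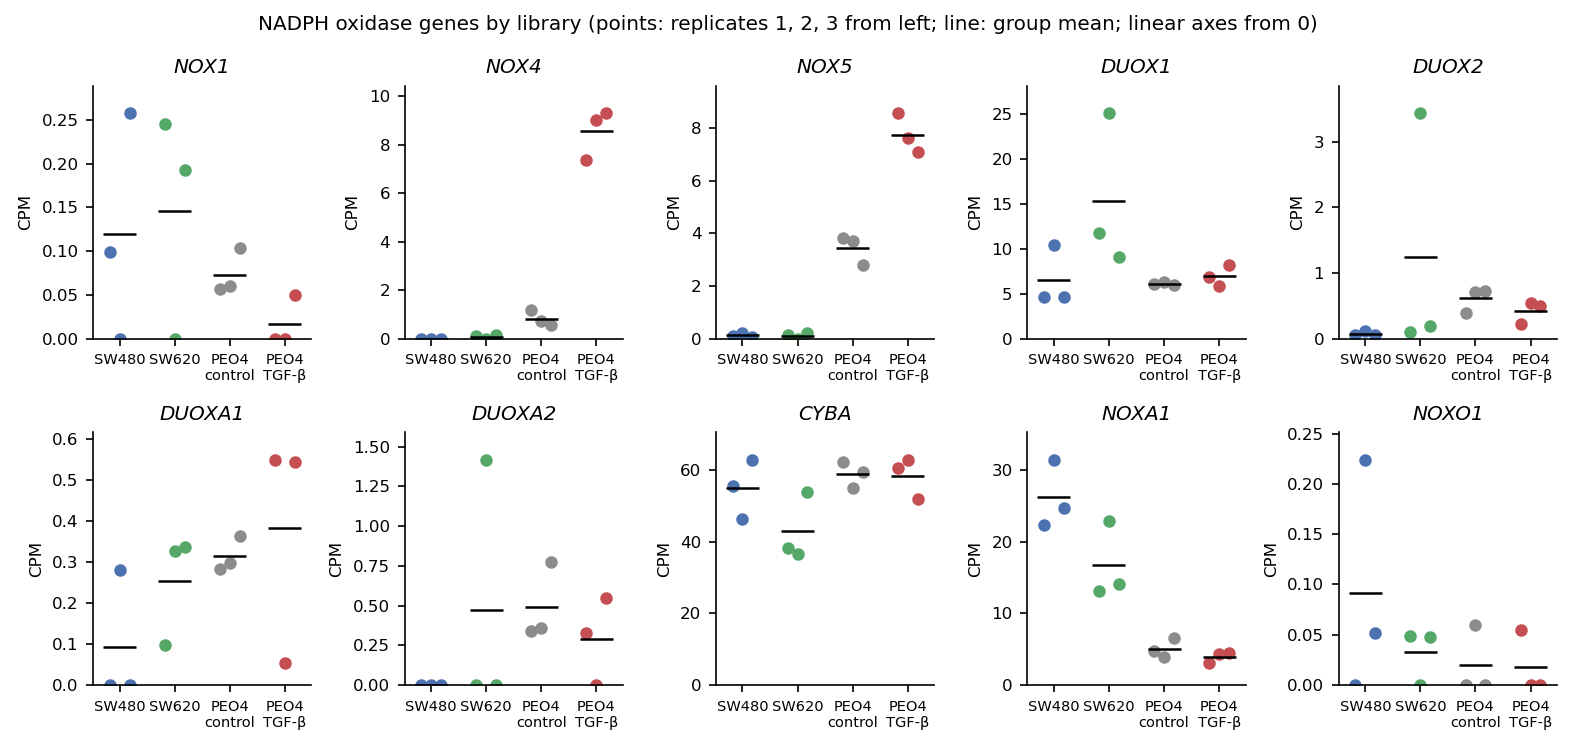
CPM of each of the 10 genes (linear axes from 0, a separate scale per gene) by group, the SW lines on the left and PEO4 on the right; points are replicates 1, 2 and 3 from the left and lines are group means. NOX4 lay at 0.569 to 1.18 CPM in the control libraries and at 7.36 to 9.31 CPM with TGF-β, and DUOX2 and DUOXA2 were raised in SW620 replicate 2 alone among the SW libraries.

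The make-up of the catalytic genes was compared per kilobase of exon, with the 5 catalytic members and the 2 remaining family genes CYBB and NOX3. NOX4 made up 13.5%, 8.65% and 7.05% of the summed level in the control libraries and 41.9%, 49.7% and 47.4% with TGF-β. DUOX1 held the largest share in control, 50.6% ± 2.58, and 26.2% ± 3.44 with TGF-β (SD, n = 3). The share of NOX5 was 20.0% ± 2.71 and 20.6% ± 3.10 (SD, n = 3), while the sum itself went from 1.37 ± 0.0599 to 3.03 ± 0.174 CPM per kb. Thus NOX4 was below DUOX1 in every control library and above it in every treated library on this scale. In the colorectal lines DUOX1 held 77.5% ± 8.69 of the sum in SW480 and 82.2% ± 7.27 in SW620 (SD, n = 3). These shares compare transcript levels, not enzyme activity. They depend on the length used, the union of all annotated exons (12.511 kb for NOX5, 8.784 kb for DUOX1 and 6.096 kb for NOX4). Which transcript forms these cells make was not tested.

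**Figure D2:**
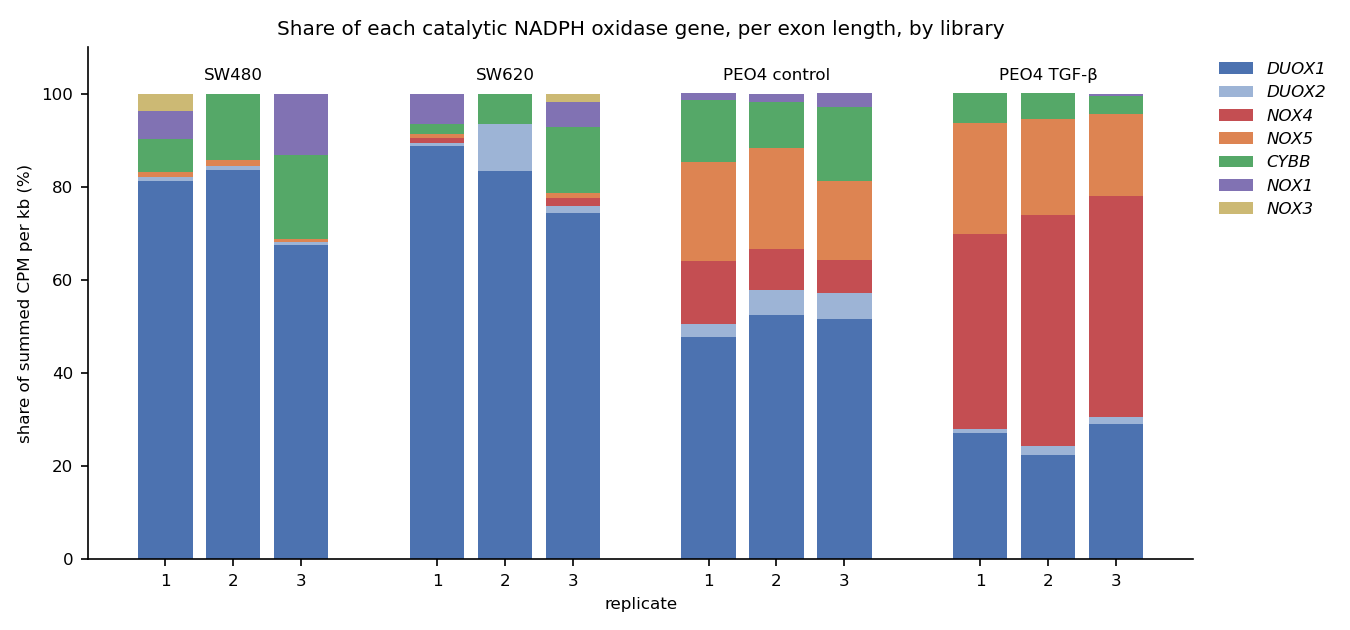
Share of each catalytic NADPH oxidase gene in their summed CPM per kb of exon (percent, stacked bars), 1 bar per library, by group and replicate. NOX4 takes 7.05% to 13.5% in PEO4 control and 41.9% to 49.7% with TGF-β, and DUOX1 takes 67.5% to 88.8% in the SW480 and SW620 libraries.

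Per kilobase of exon, the order of the members' mean levels began with CYBA, NOXA1 and DUOX1 in SW480, SW620 and PEO4 control. CYBA had 16.3 CPM per kb in SW480, 12.8 in SW620 and 17.6 in PEO4 control. NOXA1 had 15.6, 9.95 and 3.02 CPM per kb in the same groups, so the ranges of CYBA and NOXA1 overlapped in both colorectal lines and not in PEO4. DUOX1 followed at 0.745, 1.74 and 0.694 CPM per kb, apart from NOXA1 in each group. In PEO4 with TGF-β the order was CYBA at 17.4, NOXA1 at 2.35, NOX4 at 1.40, DUOX1 at 0.794 and NOX5 at 0.620 CPM per kb, where only DUOX1 and NOX5 had overlapping ranges. In PEO4 control NOX5 (0.275), DUOXA2 (0.192), NOX4 (0.135) and DUOXA1 (0.0844 CPM per kb) followed DUOX1, and neighbours among these genes overlapped. NOX5 was apart from DUOX1 above it, and DUOXA1 from DUOX2 below it. Below DUOX1 in SW480 and SW620 every member had at most 0.555 CPM per kb in any library, and most neighbours in the order overlapped.

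The second comparison asks how the metastatic line SW620 differs from the primary line SW480. DUOX1 had 93, 186 and 89 counts in SW480 and 239, 460 and 188 in SW620. Replicate 2 was the highest library in both lines, so the groups overlapped, with 4.61, 10.4 and 4.59 CPM in SW480 and 11.7, 25.1 and 9.05 CPM in SW620. The means were 6.54 ± 3.37 and 15.3 ± 8.60 CPM (SD, n = 3), a fitted 2.28-fold difference (log2 1.19 ± 0.46, SE) that was not past the threshold. Leaving out SW620 replicate 2 gave a log2 difference of 0.68, leaving out SW480 replicate 2 gave 1.70, and leaving out both gave 1.16 ± 0.25 (SE). DUOX1 passed in 7 of 14 other settings, among them DESeq2, no filter, both replicate 2 libraries left out, and SW620 replicate 3 left out (log2 1.46).

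NOXA1 was lower in SW620 on average. Its counts were 451, 561 and 480 in SW480 and 267, 420 and 292 in SW620, or 26.2 ± 4.72 and 16.7 ± 5.41 CPM (SD, n = 3), a log2 difference of -0.68 ± 0.25 (SE). SW620 replicate 2, at 22.9 CPM, overlapped SW480 replicate 1, at 22.4 CPM, and without that SW620 library the log2 difference was -0.94 and past the threshold. NOXA1 shares 2.56% of its exon bases with ENTPD8 on the opposite strand, which had 1639 to 2194 counts in SW480 and 283 to 370 in SW620. Whether counting used strand is not given in the sources used here, so the part of ENTPD8 reads in the NOXA1 counts was not tested. CYBA had 1119, 825 and 1220 counts in SW480 and 778, 672 and 1119 in SW620, or 54.9 ± 8.35 and 42.9 ± 9.53 CPM (SD, n = 3), a log2 difference of -0.39 ± 0.19 (SE). The CYBA groups overlapped through SW620 replicate 3, and without that library the log2 difference was -0.58 and past the threshold.

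DUOX2 and its maturation factor DUOXA2 were low in all SW libraries but 1. DUOX2 had 1, 2 and 1 counts in SW480 and 2, 63 and 4 in SW620, so that SW620 replicate 2 held 91.3% of the counts in its group. DUOXA2 had 0 counts in each SW480 library and 0, 26 and 0 in SW620, all in the same replicate 2. The same library had 24 counts of KRT20, a marker of differentiated colon epithelium, against 0 and 3 in the other SW620 libraries. Other colorectal markers differed there, with VIL1, CDX2 and LGR5 at their lowest SW620 values (172, 15.9 and 80.2 CPM). CDH17 lay between its other SW620 values, and CDX1 had 6 counts against 1 and 0. Of the fibroblast and endothelial markers, PDGFRA (10 counts), DCN (18) and PECAM1 (95) were also at their highest SW620 values in that library, while LUM, PDGFRB and VWF were not. The part of differentiation or of other cells in the DUOX2 and DUOXA2 counts was not tested. DUOXA1 had 0, 5 and 0 counts in SW480 and 2, 6 and 7 in SW620. Neither DUOX2 nor DUOXA2 was kept by the filter on low counts. Without the filter both were past the threshold with log2 differences of 3.95 and 6.15, values that rest on that 1 library. The authors' deposited table lists DUOX2 with a log2 fold change of 4.12 and an adjusted p of 0.0105, and DUOX1 with 1.2 and 0.028, and these were the 2 members past 0.05 in it.

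These 4 genes form a compact cluster on chromosome 15. DUOX2 (45092650 to 45114344, minus strand) and DUOXA2 (45114321 to 45118421, plus strand) start head to head and share 24 bases, and DUOXA1 (45117367 to 45129938, minus strand) and DUOX1 (45129933 to 45165576, plus strand) share 6. DUOXA2 and DUOXA1 overlap by 1055 bases at their ends, and the whole cluster spans 72.9 kb. Shared exon bases make up 28.6% of DUOXA2 and 19.1% of DUOXA1, which limits how well reads of the maturation factors can be assigned. In SW620 replicate 2 the counts were 63 for DUOX2, 26 for DUOXA2, 6 for DUOXA1 and 460 for DUOX1. The high values of DUOX2 and DUOXA2 thus lay at 1 end of the cluster, and DUOX1 at the other end was also highest in that library. Among the SW480 libraries DUOX1 was likewise highest in replicate 2, at 186 counts, where DUOX2 had 2 counts and DUOXA2 had 0.

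**Figure D3:**
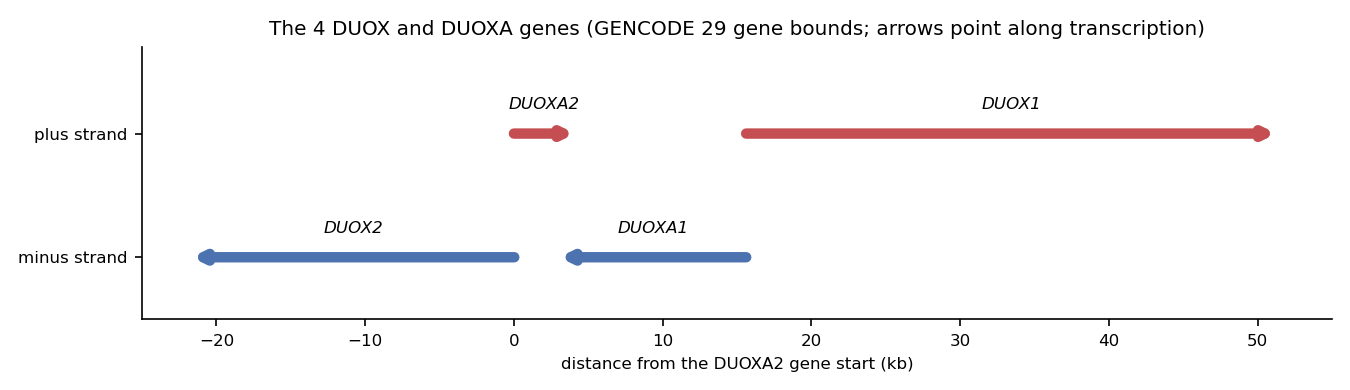
Map of DUOX2, DUOXA2, DUOXA1 and DUOX1 by strand, with distance in kb from the start of DUOXA2 on the x axis; arrows point along transcription and are drawn to scale. Each maturation factor starts next to the start of its oxidase, and DUOXA2 and DUOXA1 overlap at their ends.

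NOX1, the oxidase best known from colon, had 2, 0 and 5 counts in SW480 and 5, 0 and 4 in SW620, so replicate 2 was at 0 in both lines. Its organizer NOXO1 had 0, 4 and 1 counts in SW480 and 1, 0 and 1 in SW620. Of the NOXO1 exon bases, 98.8% are shared with TBL3 on the opposite strand, which had 662 to 1304 counts in these libraries, so the NOXO1 counts are uncertain. In SW480 and SW620 NOX1 and NOXO1 were thus close to the limit of detection while NOXA1 was the second most abundant member per kilobase.

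Of the 10 genes, 3 were tested between SW620 and SW480 (DUOX1, NOXA1 and CYBA), and 0 passed edgeR's quasi-likelihood test at an adjusted threshold of 0.05. DUOX1 and NOXA1 had an unadjusted p under 0.05, and DESeq2 placed 1 gene, DUOX1, past its threshold. Across 14 other settings DUOX1 passed in 7, NOXA1 in 5 and CYBA in 2. Over all 20941 genes tested, 30.5% were past it. In each of the 3 the CPM ranges of the lines overlapped, while they were apart in 43.6% of all tested genes. The median log2 difference was -0.39 over the 3 tested genes and 0.033 over all genes.

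**Figure D4:**
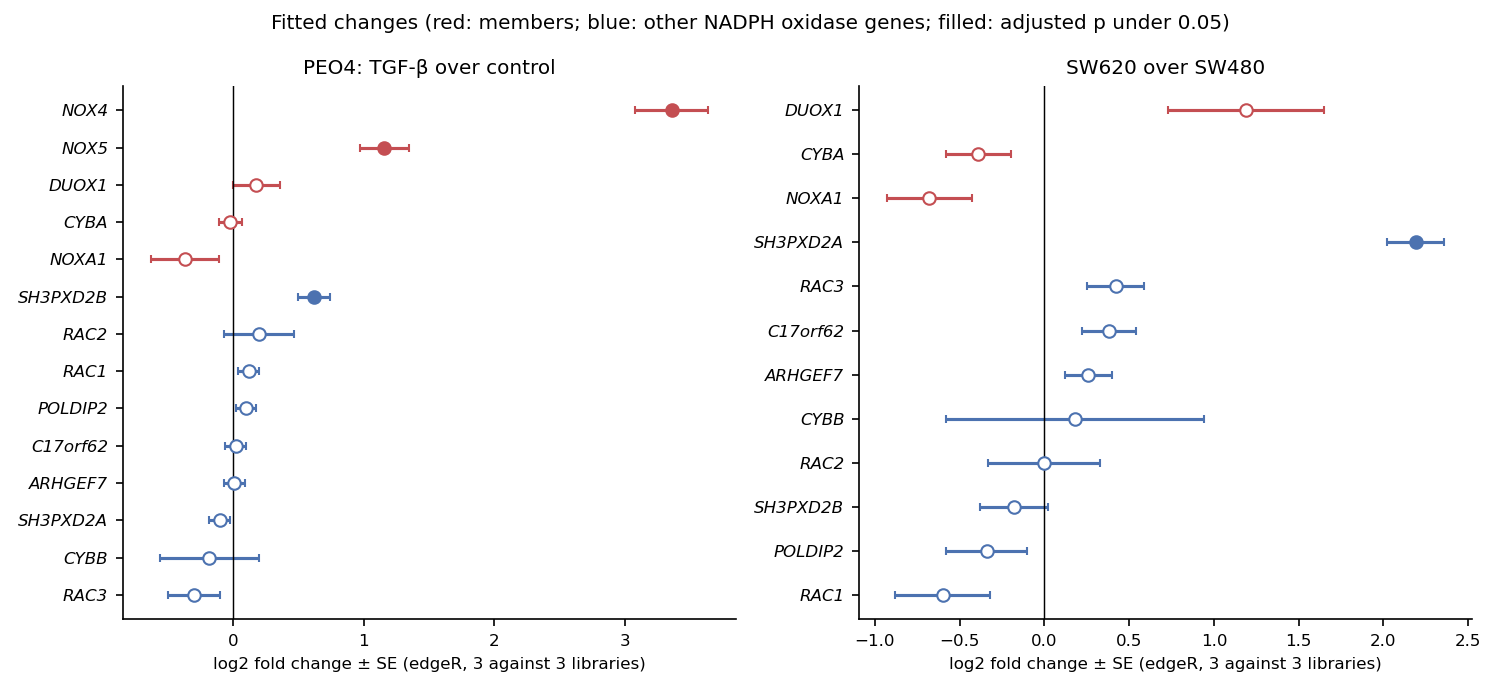
Fitted log2 fold change with its SE (edgeR, 3 against 3 libraries) of the tested members (red) and of other NADPH oxidase genes (blue); filled points have an adjusted p under 0.05. In PEO4, NOX4 lies at 3.36 and NOX5 at 1.16, and in the SW comparison no member is filled.

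The other NADPH oxidase genes were taken from a list of 12 table genes, of which 9 were tested in each comparison. In PEO4, 1 of the 9 rose with TGF-β and 0 fell, and the list's median log2 difference was 0.02. The counts of this and the following lists stand beside 2.26% of all tested genes in PEO4 and 30.5% in the SW comparison, and their medians beside -0.016 and 0.033. SH3PXD2B (TKS4), an adaptor related to the organizers, rose by 0.62 ± 0.12 (SE) on the log2 scale, with 17.6 ± 2.43 CPM in control and 27.3 ± 2.00 CPM with TGF-β (SD, n = 3), at an adjusted p of 0.0352 in edgeR. It did not pass when any 1 library other than control replicate 1 was left out. CYBB, the phagocyte catalytic subunit, had 10 to 18 counts in each PEO4 library and a log2 difference of -0.18 ± 0.38 (SE; edgeR's adjusted p 0.855). NCF4 had at most 7 counts in PEO4, NOX3 had 0, and NCF1, whose counts are uncertain because of the near-identical copies NCF1B and NCF1C, had 5 to 13. The GTPases RAC1 and RAC2 had log2 differences of 0.12 and 0.20 (edgeR's adjusted p 0.484 and 0.751). The leukocyte markers summed to between 7.62 and 11.0 CPM in the PEO4 libraries, with 36 to 51 counts of PTPRC, and their part in the CYBB and NCF1 counts was not tested.

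In the SW comparison 1 of the 9 rose in SW620 and 0 fell, with a list median of 0.18. SH3PXD2A (TKS5), an adaptor of invadopodia and a relative of SH3PXD2B, rose by 2.19 ± 0.17 (SE) on the log2 scale, from 12.5 ± 0.332 CPM in SW480 to 58.1 ± 8.86 CPM (SD, n = 3). Its adjusted p in edgeR was 2.32e-05, and it passed in each of 14 other settings. RAC1 had 270 ± 69.4 and 182 ± 60.8 CPM (n = 3; edgeR's adjusted p 0.136). CYBB (adjusted p 0.888) and RAC2 (0.999) did not pass in edgeR either. NCF1 had 3, 0 and 1 counts in SW480 and 1, 13 and 23 in SW620, and NCF4 had 9 counts in SW620 replicate 3 and at most 1 in the other SW libraries. The same SW620 libraries 2 and 3 had 50 and 108 counts of PTPRC, whose part in the NCF1 and NCF4 counts was not tested.

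Heme peroxidases use the hydrogen peroxide that dual oxidases make. In SW620, 1 of 3 tested peroxidases rose and 0 fell, with a median log2 difference of 0.39. PXDN, peroxidasin of the extracellular matrix, went from 2, 5 and 6 counts to 48, 63 and 69 (log2 3.67 ± 0.50, SE; edgeR's adjusted p 0.000629). Its level in SW620 was still low, at 3.04 CPM. In PEO4, 0 of 2 tested peroxidases passed edgeR's test, 0 passed DESeq2, 0 had an unadjusted p under 0.05 and the median was 0.10. PXDN was abundant there, at 96.2 CPM in control and 115 CPM with TGF-β (edgeR's adjusted p 0.429).

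Of 20 tested genes that remove superoxide and peroxide, 4 rose and 2 fell in SW620, a share close to the 30.5% of all tested genes, and the median log2 difference was 0.04. GPX2, a glutathione peroxidase of gut epithelium, rose by 3.98 on the log2 scale, from 8.74 ± 2.35 CPM in SW480 to 143 ± 69.6 CPM (SD, n = 3), at an adjusted p of 6.89e-05 in edgeR. PRDX4 of the endoplasmic reticulum rose by 0.90 on the log2 scale, TXNRD2 of mitochondria rose by 0.48, and PRDX3, also mitochondrial, rose by 1.05 although its CPM values overlapped. GPX8, a peroxidase of the endoplasmic reticulum, fell by 2.88 on the log2 scale, from 23.5 ± 7.47 CPM in SW480 to 3.25 ± 1.37 CPM (SD, n = 3), at an adjusted p of 0.00036 in edgeR. Secreted GPX3 fell by 0.88 on the log2 scale. GPX2 and GPX8 passed in each of 14 other settings, while PRDX3, PRDX4 and TXNRD2 did not pass without any 1 library other than SW620 replicate 2, and GPX3 did not pass without SW480 replicate 1, SW480 replicate 3 or SW620 replicate 1. TXNRD2 did not pass with no filter either. In PEO4 the median was 0.09, 0 of 21 passed edgeR's test, 6 had an unadjusted p under 0.05, and DESeq2 placed 1, the thioredoxin TXN, past its threshold. TXN had 25.3 ± 4.09 CPM in control and 35.9 ± 0.154 CPM with TGF-β (n = 3; edgeR's adjusted p 0.0725).

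The list for the supply of NADPH, the electron donor of the oxidases, held 13 genes, all tested, and not every enzyme on it makes NADPH itself. With TGF-β in PEO4, 0 passed edgeR's test, 2 had an unadjusted p under 0.05 and DESeq2 placed 1, the malic enzyme ME1, past its threshold, with a list median log2 difference of 0.18. In SW620, 3 rose and 2 fell, with a median of 0.29. The mitochondrial enzymes NNT, NADK2 and ME3 rose by 1.08, 0.81 and 0.73 on the log2 scale (edgeR's adjusted p 0.00679, 0.00542 and 0.0383). Cytosolic IDH1 fell by 1.09 and TKT of the pentose phosphate pathway by 0.76 (edgeR's adjusted p 0.0119 and 0.0493), the CPM values of TKT overlapping. NNT and NADK2 passed in each of 14 other settings, and IDH1 did not pass without SW480 replicate 1, SW480 replicate 3 or SW620 replicate 1. ME3 did not pass without any 1 SW480 library, without SW620 replicate 2, with library totals alone or with both libraries numbered 2 left out. TKT did not pass without SW480 replicate 1, SW480 replicate 3, SW620 replicate 1 or SW620 replicate 2, or with RLE scaling.

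NRF2 (NFE2L2) is a transcription factor that responds to oxidants, and its list held 10 genes, all tested. In SW620, 1 rose and 3 fell, with a median log2 difference of -0.15. HMOX1, heme oxygenase 1, fell by 2.22 on the log2 scale, from 6.26 ± 1.08 CPM in SW480 to 1.37 ± 0.420 CPM (SD, n = 3), at an adjusted p of 0.00107 in edgeR. GCLM, the modifier subunit of glutathione synthesis, fell by 1.39 on the log2 scale and OSGIN1 by 1.26, while the catalytic subunit GCLC rose by 0.61. HMOX1 and GCLM passed in each of 14 other settings. OSGIN1 did not pass without SW480 replicate 1 or SW620 replicate 1, and GCLC did not pass with no filter, nor without any 1 library other than SW620 replicate 2. NQO1 had 83.2 to 141 CPM in SW480 and 95.8 to 227 CPM in SW620 (edgeR's adjusted p 0.407). In PEO4 the median was 0.08, 0 of 10 passed edgeR's test, 0 passed DESeq2 and 3 had an unadjusted p under 0.05. HMOX1 had 10.4, 5.66 and 17.9 CPM in control and 17.3, 15.0 and 43.8 CPM with TGF-β, so its groups overlapped. Its log2 difference was 1.15 (edgeR's adjusted p 0.259), ranged from 0.49 to 1.66 when 1 library was left out, and passed in 2 of 13 other settings, no filter among them.

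**Figure D5:**
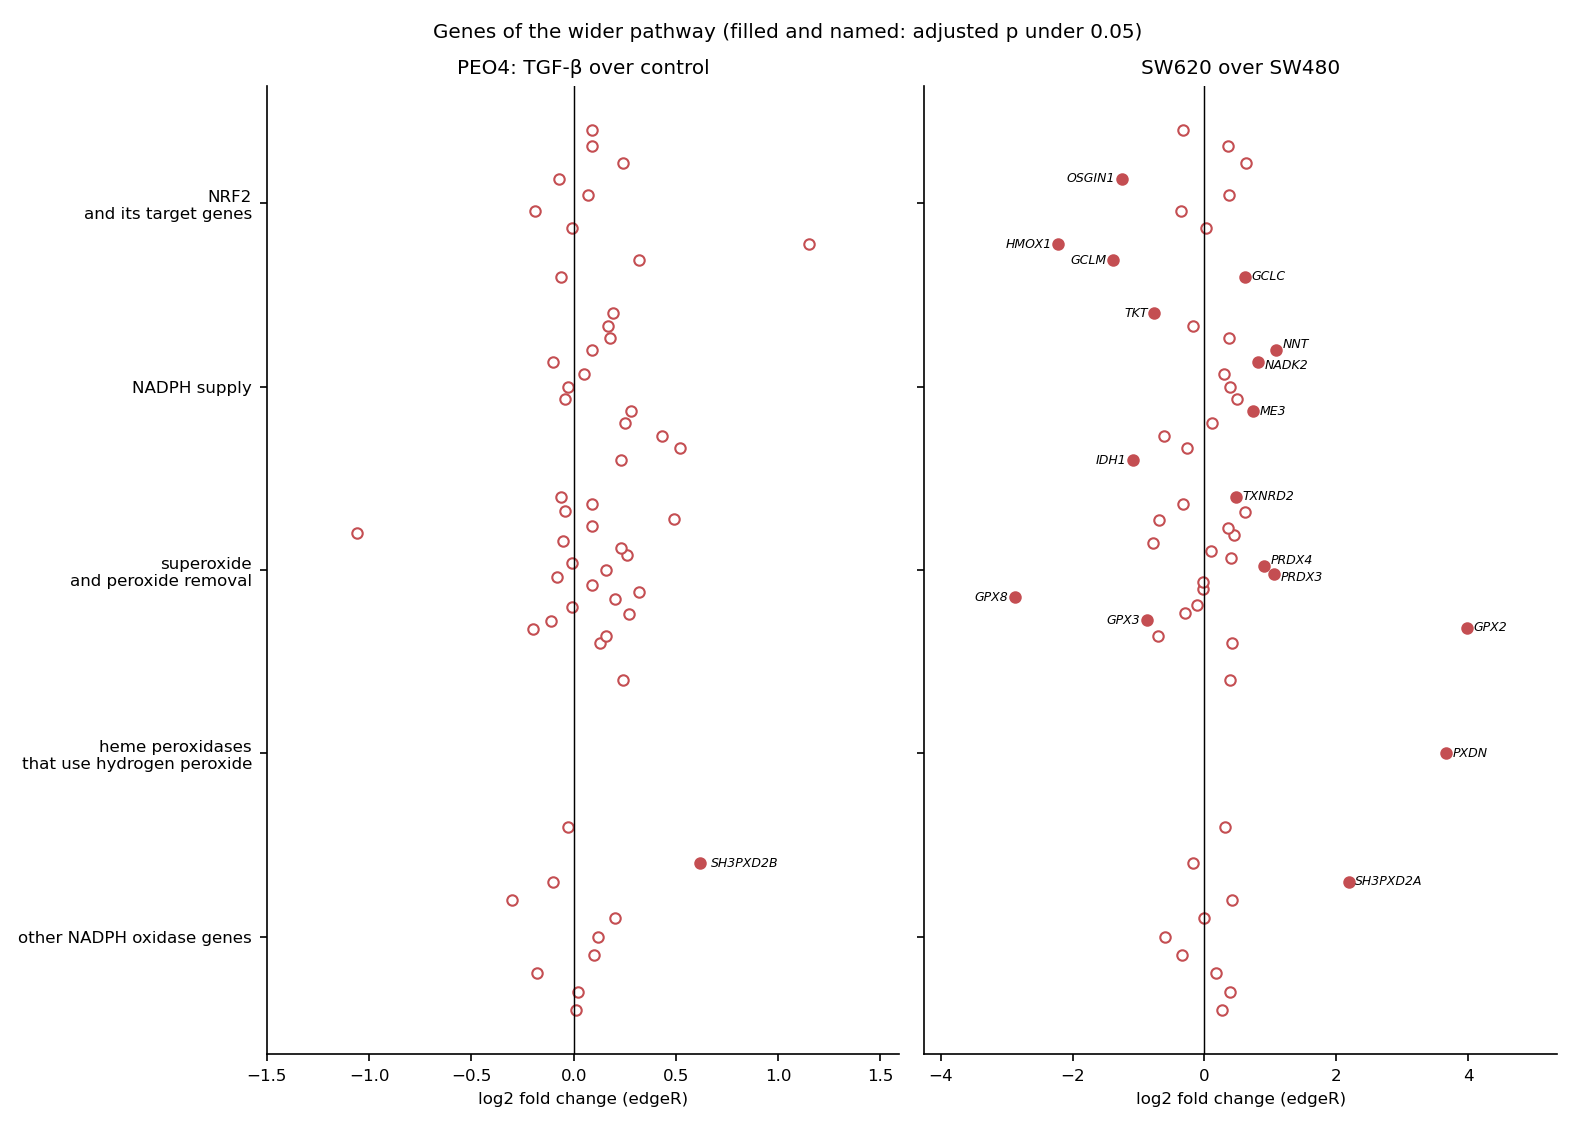
Log2 fold change (edgeR) of each tested gene of 5 lists around the NADPH oxidases, for PEO4 with TGF-β over control (left) and SW620 over SW480 (right); filled points with names have an adjusted p under 0.05, and the x scales differ. In PEO4 the filled point is SH3PXD2B at 0.62, and in the SW comparison GPX2 at 3.98 lies farthest right and GPX8 at -2.88 farthest left.

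Across the 12 libraries the genes whose log2 CPM followed NOX4 most closely by Pearson's r, among 18605 genes, were CYTH1 (0.9895), SLC12A8 (0.982) and the pseudogene MKRN9P (0.9779). These libraries come from 3 lines and share their group structure, so the values describe a common order of the groups. By Spearman's rho the closest were AMIGO2 (0.986), SLC2A5 (0.979) and CYTH1 (0.972), so 1 of the 3 was shared.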

How the data were processed

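The series holds total RNA from 12 libraries, sequenced with ribosomal RNA removed and with a DNase step, per the labels. The authors deposited whole-number counts for 57500 Ensembl gene IDs, of which 485 have no symbol, and tables of their own comparisons. Those deposited tables give, per gene, a log2 fold change with its p-value before and after adjustment, and a normalized signal per library that was not used here. The submitters' processing notes name Trimmomatic 0.36, STAR 2.5.2b, featureCounts of Subread 1.5.2, DESeq2 and GRCh38. The annotation and the strand setting of the counting are not given in the sources used here, and without strand reads of overlapping genes cannot be told apart. Positions and exon lengths come from GENCODE 29, in which 56898 of the IDs were found, and promoter sequences from RefSeq.

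The counts of the 6 libraries in a comparison were tested with edgeR 4.0.16 (R 4.3.3) after filterByExpr and TMM scaling. The test was glmQLFTest on a glmQLFit model, two-sided, and p-values were adjusted by Benjamini-Hochberg over all genes tested, with a threshold of 0.05. The SE is the log2 fold change over the square root of F. CPM use TMM-scaled totals over the 12 libraries, and CPM per kb divide by the union of a gene's exons. With 3 libraries a group the smallest p of an exact two-sided permutation test is 0.1. Floors of 3 counts cover counting error only. The fit was tested on simulated counts.

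The members, gene lists and tests were chosen with earlier results of these data known. Named were all members, CYBB, NOX3, NCF1, NCF4, RAC1 and RAC2, the TGF-β and lineage check genes, up to 4 genes per list and direction past the threshold with values that did not overlap, and the 3 genes most like NOX4. Some genes first placed on these lists are not reported here, and the list counts and medians are given without them. The genes PRDX3, TKT, TXN and NQO1, the PEO4 values of HMOX1 and PXDN, the name of ME1, the tests of the lineage markers other than PAX8, CDX2 and VIL1, and the counts of MUC16, PTPRC and KRT20 were added after their values were seen. So were the SW620 replicate 2 values of the other colorectal markers and of the fibroblast and endothelial markers, and the tests of LUM and PECAM1. Likeness to NOX1 is not given, since it had at most 5 counts in any library. Likeness was taken on log2 CPM with a prior count of 2.

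Alternatives were RLE scaling, library totals alone, DESeq2 1.42.0, no filter, a minimum of 10 counts in each library, 1 model over all 12 libraries, a block for the replicate number, and each library left out in turn. Leaving out both SW libraries numbered 2 was added after seeing the data.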

Additional observations from a re-analysis of the deposited data

How the results depend on the processing

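Most counts of genes past the threshold moved with the processing. Between the PEO4 groups 431 genes were past it, against 937 with DESeq2, 1457 with no filter, 165 with all 12 libraries in 1 model and 72 to 1080 when 1 library was left out. For the SW lines 6385 became 4253 to 7419 when 1 library was left out. Of the members, the 2 past the threshold in PEO4 were 1 with all 12 libraries in 1 model and 1 to 2 when 1 library was left out. NOX4 passed in all 13 alternatives. In the SW comparison the 0 members became 1 with DESeq2 (DUOX1), 4 with no filter (DUOX1, DUOX2, DUOXA2 and NOXA1), 3 with all 12 libraries in 1 model (DUOX1, DUOX2 and NOXA1), 2 with both libraries numbered 2 left out, and 0 to 2 when 1 library was left out. DUOX2 and DUOXA2 enter through SW620 replicate 2 alone, and for the rest the cause was not tested.

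Same-numbered libraries deviated together with r of 0.02, 0.67 and 0.57 in the SW lines and 0.29, -0.14 and 0.48 in PEO4, so the numbers were not taken to pair the samples, and not every library correlated best with its own number. With the replicate block, 10667 genes were past the threshold for the SW lines and 2102 for PEO4, and 3 members (DUOX1, NOXA1 and CYBA; adjusted p 1.88e-05, 0.000313 and 0.00845) and 2 members, respectively. In PEO4, SKIL, SMAD7 and HMOX1 also passed with the block (adjusted p 9.05e-05, 0.0244 and 8.71e-05).

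Log2 differences near 0 changed sign. In PEO4, CYBA was 0.00 with no filter, 0.01 with all 12 libraries in 1 model and -0.07 to 0.06 when 1 library was left out, and RAC2 was -0.03 to 0.48. In the SW comparison, RAC2 was 0.02 with library totals alone, 0.01 with at least 10 counts in every library and -0.38 to 0.27 when 1 library was left out. There CYBB was -0.20 to 0.69. Of the 3 genes most like NOX4, 1 was shared when Spearman's rho replaced Pearson's r. LUM and PECAM1 apart, 23 named genes that are not members passed in the SW comparison, 14 of them in every alternative that tested them. In PEO4 8 passed, 3 of them in every alternative. Each of these kept its direction in the alternatives run. Depth limits NOX1, NOXO1 and the DUOXA genes most, since a few counts separate their libraries.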
